A study of Arabidopsis thaliana with 12 samples.

Results

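The comparison described here asked what a mutation in PNET2A adds in Arabidopsis thaliana seedlings that already carry mutations in PNET2B and PNET2C. It sets the triple mutant pnet2_abc (3 libraries, mutations in PNET2A, PNET2B and PNET2C) against the double mutant pnet2_bc (3 libraries, mutations in PNET2B and PNET2C). By the labels, B and C are thus mutated on both sides. These 6 libraries are part of a series of 12, which also holds 3 libraries of the double mutant pnet2_ac (mutations in PNET2A and PNET2C) and 3 of the wild type (WT, ecotype Col-0). All plants were untreated whole seedlings of the Col-0 ecotype, 7 days old, grown on Murashige and Skoog medium with sucrose, and messenger RNA was counted per gene. The labels do not name the mutant alleles or say how many lines stand behind each genotype. It is therefore not known whether both sides carry the same alleles of B and C. Whether each library of a genotype was made from its own batch of plants is not stated either. The p-values therefore reflect the variation among these libraries and no more.

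PNET2 proteins are membrane proteins of the nuclear envelope, the double membrane around the nucleus. On the inner side of that membrane lies the nuclear lamina, a protein mesh that in plants is built largely by the coiled-coil CRWN proteins (LINC1 to LINC4 in the annotation used here). The lamina and the membrane proteins tied to it shape the nucleus and hold chromatin at its edge. Plants that lack lamina components are known for small or misshapen nuclei and, in some mutants, for raised defence gene expression and reduced growth.

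Counts summed to 65758625 to 78856895 in the 6 libraries compared and to at most 115881203 in the series. At that depth 3 counts in a library, the limit that a count of 0 allows, amounted to 0.0262 to 0.0436 CPM, a floor that covers counting error only. CPM are normalised read counts, scaled to a common library size with TMM, a method that trims extreme genes. Of 27436 listed genes, 23330 passed the filter on low counts. In a principal component analysis the triple mutant stood apart, with scores of 166 to 190 on the first component (64.3% of the variance), against scores below 0 for the other 9 libraries. Roots and shoots were both represented: all 16 tested markers of root identity and all 48 tested photosynthesis genes had counts in both genotypes.

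The 3 genes annotated with the DUF2215 domain, taken as the PNET2 family because the annotation names no gene PNET2, all differed between the triple and the double mutant, and not in 1 direction. The sources used here do not match them to the letters A, B and C. AT1G28760 (TAIR10.1 chromosome 1, 10103081 to 10104883, plus strand, protein-coding) had 45.8, 54.1 and 42.4 CPM in pnet2_abc, against 3.81, 4.71 and 4.80 CPM in pnet2_bc. That was 10.7-fold higher (log2 fold change 3.42 ± 0.14, SE; adjusted p = 2.7e-11, edgeR's quasi-likelihood test with Benjamini-Hochberg adjustment over all tested genes, as for every adjusted p below). AT3G49840 (chromosome 3, 18484513 to 18487043, plus strand) had 2.1, 2.31 and 2.09 CPM in pnet2_abc, against 6.63, 8.33 and 5.48 CPM in pnet2_bc (-1.65 ± 0.19, adjusted p = 1.5e-06). AT5G67610 (chromosome 5, 26960904 to 26963736, minus strand) had 12, 11 and 10.6 CPM in pnet2_abc, against 14.7, 15.4 and 14.3 CPM in pnet2_bc (-0.40 ± 0.11, adjusted p = 0.00386). No triple-mutant library overlapped a pnet2_bc library for any of the 3 genes. Since reads of a disrupted allele can still count toward its gene, these levels do not test the genotype labels.

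**Figure D1:**
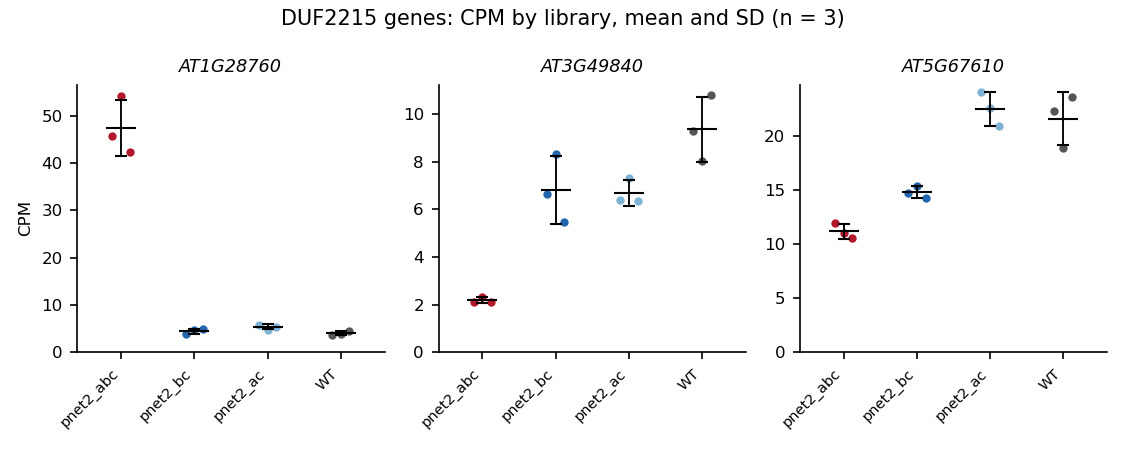
Each panel plots the CPM of 1 DUF2215 gene in the 12 libraries (dots), with the mean and SD of 3 libraries per genotype, pnet2_abc first and WT last. AT1G28760 stands at 42.4 to 54.1 CPM in pnet2_abc and AT3G49840 at 2.09 to 2.31 CPM, away from all other libraries.

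Across all tested genes, most transcripts were called different between pnet2_abc and pnet2_bc. The test called 14849 of 23330 genes at an adjusted p under 0.05, which is 63.6%. In pnet2_abc 7358 genes were higher (31.5% of those tested) and 7491 were lower (32.1%) than in pnet2_bc. Among the higher genes 3540 differed at least 2-fold, 1756 at least 4-fold and 666 at least 16-fold. The lower genes numbered 4188, 1520 and 269 at the same limits, so more of the changes past 16-fold were rises. Beyond the filter on low counts no minimum level was set, so unbounded folds of genes almost absent from a genotype are included. The libraries of the 2 genotypes did not overlap for 7241 of the higher and 7328 of the lower genes. Genes not called were not counted this way. A call itself favours such separation, so these counts add no support to the calls. By contrast, the same test called 177 genes in pnet2_bc against WT (0.759%), 356 in pnet2_ac against WT (1.53%) and 84 in pnet2_bc against pnet2_ac (0.36%). It called 14962 in pnet2_abc against WT (64.1%), and 13559 genes were called in the same direction against pnet2_bc and against WT. Those last comparisons share the 3 pnet2_abc libraries.

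The split between higher and lower genes depended on the scaling. With TMM the median log2 fold change of all tested genes was 0.00 and 49.6% of the called genes were higher. With library size alone the median was 0.16 and the share 57.8%, and with the deposited TPM values (log2 of TPM plus 1) they were 0.14 and 58.1%. Fold changes are given on the TMM scale.

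The largest rises included transcripts that were almost absent from pnet2_bc. AT3G29970, which encodes a B12D protein, had 84.9, 97.9 and 69.1 CPM in pnet2_abc and no count in any pnet2_bc library, which makes it at least 6290-fold higher against a floor of 3 counts over the group. TH8, an h-type thioredoxin, had 101, 127 and 107 CPM in pnet2_abc, against 0.433, 0.331 and 0.414 CPM in pnet2_bc, 283-fold higher (adjusted p = 8.4e-06). GPT2, a glucose-6-phosphate/phosphate translocator of plastids, had 114, 186 and 169 CPM in pnet2_abc, against 0.811, 0.739 and 0.138 CPM in pnet2_bc, 275-fold higher (adjusted p = 2.1e-05). Only genes whose libraries did not overlap could enter this choice, so that separation is no result of its own. ICL, the isocitrate lyase of the glyoxylate cycle, which turns stored fat into sugar in germinating seeds, had 253, 371 and 408 CPM in pnet2_abc, against 1.70, 2.60 and 1.77 CPM in pnet2_bc (170-fold, adjusted p = 5.6e-07). BPS3, a BPS1-like protein, was 184-fold higher (88.7 ± 18.8 CPM in pnet2_abc, against 0.48 ± 0.0291 CPM in pnet2_bc, SD, n = 3 each). XTH11, a xyloglucan-modifying enzyme of the cell wall, stood at 21.5 CPM in pnet2_abc, against 0.0414 CPM in pnet2_bc on average. ELI3-2, annotated as a cinnamyl alcohol dehydrogenase, stood at 30.4 CPM in pnet2_abc, against 0.0891 CPM in pnet2_bc.

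The largest falls left transcripts at 0.215 to 2.73 CPM on average in pnet2_abc, against 10.9 to 128 CPM in pnet2_bc. AT3G28220, a TRAF-like protein, had 0.818, 0.241 and 0.41 CPM in pnet2_abc, against 106, 91.1 and 67.7 CPM in pnet2_bc, 180-fold lower (adjusted p = 1.6e-07). MYB29, a regulator of aliphatic glucosinolate synthesis, had 1.09, 0.454 and 0.386 CPM in pnet2_abc, against 37.3, 45.3 and 33.5 CPM in pnet2_bc, 60.5-fold lower (adjusted p = 1.5e-08). IRT1, the main iron importer of the root surface, had 0.218, 0.269 and 0.157 CPM in pnet2_abc, against 8.13, 23.3 and 9.34 CPM in pnet2_bc, 63.5-fold lower (adjusted p = 5.7e-06). The falls were chosen under the same condition of no overlapping libraries. LOG1, from a family of cytokinin-activating enzymes, was 50.1-fold lower, at 1.85, 0.667 and 1.42 CPM in pnet2_abc, against 67.0, 68.9 and 62.6 CPM in pnet2_bc. AT4G21650, a subtilase (a serine protease), was 105-fold lower and AT1G13650, of uncharacterized function, was 147-fold lower.

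**Figure D2:**
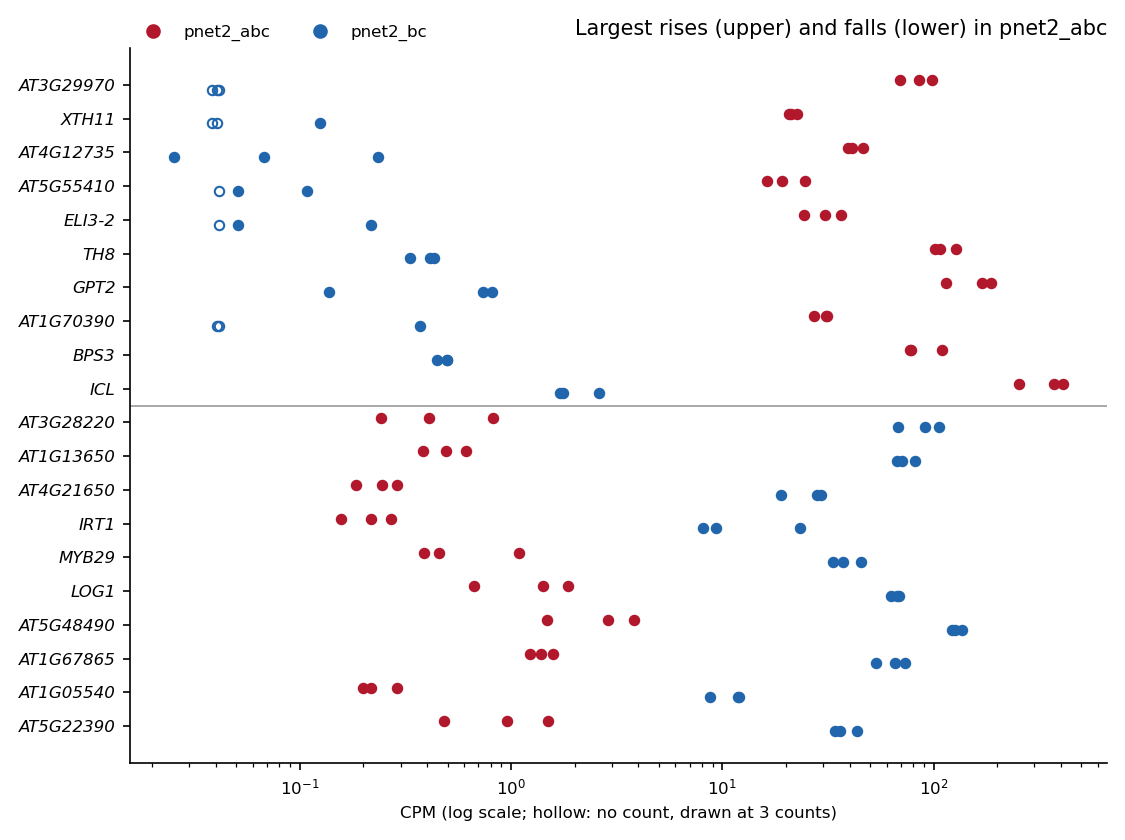
CPM on a log axis for the 10 largest rises and 10 largest falls in pnet2_abc (red) against pnet2_bc (blue), 1 dot per library; hollow dots have no count and are drawn at 3 counts. ICL lies at 253 to 408 CPM in pnet2_abc, against 1.70 to 2.60 CPM in pnet2_bc. Genes with overlapping libraries were left out by the choice.

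Transcripts for photosynthesis fell throughout. Counts of called members, here and for each list below, are to be set beside all tested genes, 31.5% higher and 32.1% lower. All 48 tested genes of the light-harvesting antennae, photosystems, plastid electron transport and Calvin cycle were lower in pnet2_abc and none was higher, with a median log2 fold change of -2.02, where the median of all tested genes was 0.00. Summed over the 48 genes they amounted to 33664 to 38618 CPM in pnet2_abc, against 139885 to 152221 CPM in pnet2_bc. CA1, a plastid carbonic anhydrase, had 252, 227 and 211 CPM in pnet2_abc, against 2527, 2245 and 2450 CPM in pnet2_bc (-3.39 ± 0.08, adjusted p = 3.8e-13). SBPASE, a Calvin cycle phosphatase, had 258, 249 and 239 CPM in pnet2_abc, against 1164, 1074 and 1160 CPM in pnet2_bc, 4.55-fold lower. Neither gene had overlapping genotypes. In whole seedlings, fewer cells of a type and less RNA per cell cannot be told apart, here and for every gene group below.

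Genes of cell division, auxin response and the stomatal lineage were mostly lower as well. Of 41 genes of the cell cycle and DNA replication, 31 were lower and 2 higher (median -1.16). CYCD1;1, a cyclin of the G1 phase, had 5.74, 3.53 and 5.45 CPM in pnet2_abc, against 28.7, 28.6 and 24.7 CPM in pnet2_bc (5.57-fold lower, adjusted p = 1.1e-09). SYP111 (KNOLLE), the syntaxin that fuses vesicles into the new wall between dividing cells, was 5.21-fold lower. CDC20.1, an activator of the complex that ends mitosis, was at -2.54 and MCM2, a subunit of the replication helicase, at -0.29, and CYCB1;1 did not pass the test (0.02).

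Of 35 genes of auxin response and transport, 28 were lower and 3 were higher (median -1.71). SHY2, a repressor of auxin signalling that auxin itself induces, had 4.87, 4.06 and 5.92 CPM in pnet2_abc, against 66.6, 65.0 and 67.6 CPM in pnet2_bc (-3.74 ± 0.12, adjusted p = 2.0e-12). PIN3, an auxin exporter, had 42.0, 37.7 and 41.4 CPM in pnet2_abc, against 166, 165 and 188 CPM in pnet2_bc, 4.29-fold lower. SAUR19 (-5.17) and SAUR20 (-4.85), small auxin-induced proteins of cell expansion, fell too. The 3 members that rose included GH3.3 (0.65) and WES1 (0.99), which join auxin to amino acids. Of 12 markers of the stomatal lineage, the cells that form leaf pores, 11 were lower and none was higher (median -1.61), and only MUTE did not pass the test (-0.57). Their summed level was 43.2 to 49.1 CPM in pnet2_abc, against 153 to 154 CPM in pnet2_bc. STOMAGEN, a peptide from the leaf mesophyll that promotes stomata, had 1.94, 0.936 and 1.13 CPM in pnet2_abc, against 35.0, 31.4 and 28.8 CPM in pnet2_bc (-4.57 ± 0.23, adjusted p = 1.9e-09).

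Defence genes moved the other way. Of 31 genes of pattern-triggered immunity, the response to microbial surface molecules, and of camalexin synthesis, 28 were higher in pnet2_abc, none was lower and the median was 2.68. WRKY33, a transcription factor that activates camalexin synthesis, had 185, 199 and 165 CPM in pnet2_abc, against 17.2, 16.3 and 15.5 CPM in pnet2_bc (3.49 ± 0.09, adjusted p = 5.2e-13). WRKY11 had 81.9, 113 and 98.5 CPM in pnet2_abc, against 15.2, 17.7 and 16.5 CPM in pnet2_bc, 5.95-fold higher. Both stood apart in every library. The receptor genes EFR (3.19) and AT5G46330 (5.58) and the marker FRK1 (4.29) rose too, whereas PEPR2 (0.27), PROPEP1 (0.03) and CYP71A13 (1.79) did not pass the test.

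Of 28 genes of salicylic acid and systemic immunity, 21 were higher and 3 lower (median 1.86). WRKY18 had 157, 183 and 140 CPM in pnet2_abc, against 7.59, 9.08 and 6.76 CPM in pnet2_bc (20.5-fold, adjusted p = 1.7e-12). SAG101, a partner of EDS1 in immune signalling, had 62.4, 69.7 and 63.3 CPM in pnet2_abc, against 7.32, 7.22 and 6.40 CPM in pnet2_bc (9.33-fold). The list did not move as 1 block. PR5, a marker of salicylic acid response, was lower (-2.51), as was the salicylic acid receptor gene NPR4 (-1.51), and BGL2 (1.48) did not pass the test. PR1, the standard marker of the same response, was higher (4.85, adjusted p = 0.0439), but that call was lost without any 1 pnet2_abc library, any 1 WT library, pnet2_bc replicate 2 or pnet2_bc replicate 3 (adjusted p up to 0.117).

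Of 31 genes of jasmonate and ethylene defence, 21 were higher and 5 lower (median 1.35). CYP94C1, which inactivates the active jasmonate, had 19.3, 25.8 and 27.5 CPM in pnet2_abc, against 0.757, 1.17 and 0.717 CPM in pnet2_bc (27.3-fold, adjusted p = 9.4e-10). PR4 had 776, 829 and 876 CPM in pnet2_abc, against 60.0, 83.5 and 92.0 CPM in pnet2_bc (10.5-fold). The 5 members that fell included AOS (-0.60), an enzyme of jasmonate synthesis. Of 23 tested genes of senescence, 18 were higher and 5 lower (median 1.83). NYC1, which starts the breakdown of chlorophyll b, had 180, 192 and 175 CPM in pnet2_abc, against 64.0, 57.4 and 72.7 CPM in pnet2_bc (2.81-fold, adjusted p = 5.3e-10). ASN1 (-2.40) and DIN10 (-1.49) were among the 5 that fell.

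Among stress lists, low oxygen had the highest median. Of its 20 genes 17 were higher and none lower (median 3.07). SUS1, a sucrose synthase, had 161 to 196 CPM in pnet2_abc, against 21.6 ± 3.76 CPM in pnet2_bc (SD, n = 3), 8.23-fold higher (adjusted p = 1.4e-10, edgeR). AlaAT1, an alanine aminotransferase, had 451, 531 and 485 CPM in pnet2_abc, against 91.0, 94.9 and 99.7 CPM in pnet2_bc (5.14-fold). The fermentation gene ADH1, an alcohol dehydrogenase, had a log2 fold change of 7.23. Of 20 genes of the unfolded protein response, 18 were higher and none lower, by smaller amounts (median 0.73). BZIP60, its transcription factor, had 120, 139 and 117 CPM in pnet2_abc, against 29.6, 34.3 and 25.0 CPM in pnet2_bc (4.22-fold, adjusted p = 2.2e-09). Of 21 genes of oxidative and mitochondrial stress, 14 were higher and 2 lower (median 0.74, and 1.11 without pnet2_bc replicate 2). AOX1A, the alternative oxidase of mitochondria, had 107, 141 and 138 CPM in pnet2_abc, against 19.2, 22.5 and 21.1 CPM in pnet2_bc (6.14-fold), and AT4G35090, catalase 2, had 468, 486 and 400 CPM in pnet2_abc, against 1863, 1967 and 1825 CPM in pnet2_bc (4.18-fold lower).

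Cold, abscisic acid and heat genes were mixed. Of 16 cold response genes, 9 were higher and 4 lower (median 0.88), with 2 lower without pnet2_abc replicate 1, without pnet2_bc replicate 2 or with library size alone. STZ, a zinc finger transcription factor, rose, with 87.5, 96.3 and 76.3 CPM in pnet2_abc, against 1.97, 1.52 and 1.05 CPM in pnet2_bc (57.2-fold, adjusted p = 2.6e-10). The cold marker KIN1 (-0.76) and ICE1 (-1.36), a regulator of cold response, fell. Of 28 genes of abscisic acid and drought, 13 were higher and 8 lower (median 0.47). P5CS1, which makes the solute proline, had 24.1, 22.7 and 30.8 CPM in pnet2_abc, against 276, 225 and 268 CPM in pnet2_bc (-3.31 ± 0.20, adjusted p = 5.7e-08), and the receptor gene PYL6 rose (2.81). Of 19 heat shock genes, 3 were higher and 9 lower (median -0.72), with the small heat shock protein gene HSP18.2 up (2.93) and the chaperone gene HSP101 down (-1.21). Of 13 DNA damage genes, 6 were higher and 3 lower (median 0.42, and 0.02 to 0.81 over the alternatives tried). With TPM plus 1 none was lower. GMI1, induced by DNA breaks, had 53.9, 61.6 and 60.5 CPM in pnet2_abc, against 5.63, 5.38 and 6.15 CPM in pnet2_bc (10.3-fold), while the damage kinases ATM (-0.50) and ATR (-1.11) fell.

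Genes of the nuclear envelope, lamina and pore changed in both directions: 13 of 32 were higher (40.6%) and 14 lower (43.8%). Changes in both directions were also the rule over all tested genes, with 31.5% higher and 32.1% lower. Their median was -0.07 with TMM and 0.09 with library size alone or with TPM, so the list has no direction that holds across scalings. LINC1 (CRWN1), a main builder of the lamina, had 61.9, 53.0 and 62.3 CPM in pnet2_abc, against 143, 123 and 125 CPM in pnet2_bc (-1.14 ± 0.08, adjusted p = 5.5e-09). LINC2 (-0.21), LINC3 (0.14) and LINC4 (-0.07) did not pass the test. WIP2, an outer nuclear membrane protein of the complex that bridges the envelope, had 8.64, 7.01 and 7.91 CPM in pnet2_abc, against 25.7, 24.9 and 23.8 CPM in pnet2_bc (3.16-fold lower). The inner membrane protein SUN1 (0.47) and WIP1 (0.38) were slightly higher. Of 12 genes of the nucleolus and ribosome assembly, 1 was higher and 3 lower (median 0.07), against 6 higher and 1 lower with library size alone or with TPM plus 1 and 2 higher without pnet2_abc replicate 1. The member that rose with TMM was NUC-L2, a nucleolin, with 15.9, 19.5 and 16.7 CPM in pnet2_abc, against 1.92, 2.06 and 1.68 CPM in pnet2_bc (9.18-fold, adjusted p = 2.2e-07).

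Nutrient and metabolic lists also differed from one another. Aliphatic glucosinolate genes, which make sulfur-rich defence compounds, fell in 12 of 15 cases with no rise (median -2.15), CYP83A1 to 35.0, 26.3 and 29.6 CPM in pnet2_abc, against 155, 193 and 173 CPM in pnet2_bc (5.73-fold lower). Of 22 tested genes of iron homeostasis, 11 were lower and 3 higher (median -1.08, and -0.24 with 6 lower among genes at 5 CPM or more on average). BTS, an iron-sensing ligase, had 45.1, 57.2 and 49.9 CPM in pnet2_abc, against 143, 129 and 119 CPM in pnet2_bc (2.57-fold lower). Of 18 genes of phosphate starvation, 8 were higher and 2 lower (median 0.24). Without 1 library that median lay between 0.05 (pnet2_abc replicate 3) and 0.41 (pnet2_bc replicate 3), and 5 were lower without pnet2_abc replicate 3. Of 19 anthocyanin and flavonol genes, 7 were higher and 6 lower (median 0.30, but 0.08 without pnet2_abc replicate 3 and 0.57 without pnet2_abc replicate 2). Those shares, 36.8% and 31.6%, were near those of all tested genes (31.5% and 32.1%). DFR (1.56), of the anthocyanin branch, rose, and FLS1 (-1.31), of the flavonol branch, fell. Of 15 clock genes, 8 were higher and 4 lower (median 0.36). The morning genes CCA1 and LHY fell (-1.45 and -1.09), as did RVE1 with 6.21, 5.57 and 4.53 CPM in pnet2_abc, against 93.6, 75.5 and 88.4 CPM in pnet2_bc (15.8-fold lower), and the later-phased genes PRR5 (3.95) and TOC1 (0.72) rose. Of 23 genes of cell wall loosening and cellulose, 12 were higher and 9 lower (median 0.33), with XTH24 up 26.3-fold and EXPA5 down 5.11-fold.

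Markers of organs and developmental stages were counted beside these lists. Root identity markers summed to 2384 to 2469 CPM in pnet2_abc, against 2278 to 2709 CPM in pnet2_bc, with 1 of 16 called higher and 2 lower (median -0.15, and 0.01 with library size alone). Those shares of root identity markers, 6.25% and 12.5%, were below those of all tested genes (31.5% and 32.1%). SHR, which specifies root layers, was 3.47-fold lower. Root hair and epidermis markers summed to 28.5 to 49.2 CPM in pnet2_abc, against 32.9 to 44.6 CPM in pnet2_bc, with 1 of 10 called in each direction (median 0.28). Shoot meristem and boundary markers summed to 42.7 to 49.2 CPM in pnet2_abc, against 46.8 to 61.0 CPM in pnet2_bc, with 2 of 8 higher and 1 lower; the median, -0.39, turned to 0.19 with TPM and was positive also without a filter on low counts, with TPM plus 0.1, with quantile-normalized TPM and without pnet2_bc replicate 3. CUC1, a boundary gene, had 8.70, 12.3 and 11.3 CPM in pnet2_abc, against 0.379, 0.255 and 0.124 CPM in pnet2_bc (42.3-fold, adjusted p = 4.8e-08). The call of STM, a meristem regulator (0.67, adjusted p = 0.0212), was lost without pnet2_abc replicate 2 or 3 or pnet2_bc replicate 1 or 3 (adjusted p up to 0.086). Of 9 tested floral regulators, 3 were higher and 3 lower, with 1 higher without pnet2_abc replicate 2, pnet2_bc replicate 1 or pnet2_bc replicate 2 (median -0.25, between -0.86 and 0.00 without 1 library, and 0.17 among the better-expressed genes, at 5 CPM or more on average), with SEP3 5.64-fold higher and AGL20 (SOC1) 4.52-fold lower. For floral regulators that was 33.3% in each direction, near the shares of all tested genes. Of 8 tested seed maturation genes, 3 were higher and none lower, all at low levels. The 8 summed to 2.45 to 5.23 CPM in pnet2_abc, against 0.893 to 1.06 CPM in pnet2_bc and 1.41 to 1.69 CPM in WT. Their median was 2.23, also with members at 0 in pnet2_bc set to their bound, but 0.56 with TPM. ABI3, a master regulator of seed maturation, had 0.491, 0.567 and 0.265 CPM in pnet2_abc and no count in pnet2_bc, at least 33.1-fold higher. It averaged 0.441 CPM in pnet2_abc, 0.334 CPM in WT and 0.0117 CPM in pnet2_ac. The fold is therefore set by its absence from pnet2_bc and is not a rise of that size above WT. The calls of CRU2 and FUS3 were lost without 1 library: CRU2 without pnet2_abc replicate 2 (adjusted p = 0.0533), and FUS3 without pnet2_abc replicate 3, pnet2_bc replicate 1 or pnet2_bc replicate 3 (0.0698, 0.0686 and 0.0756). The part that organ or cell-type makeup plays in the lists above was not tested.

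**Figure D3:**
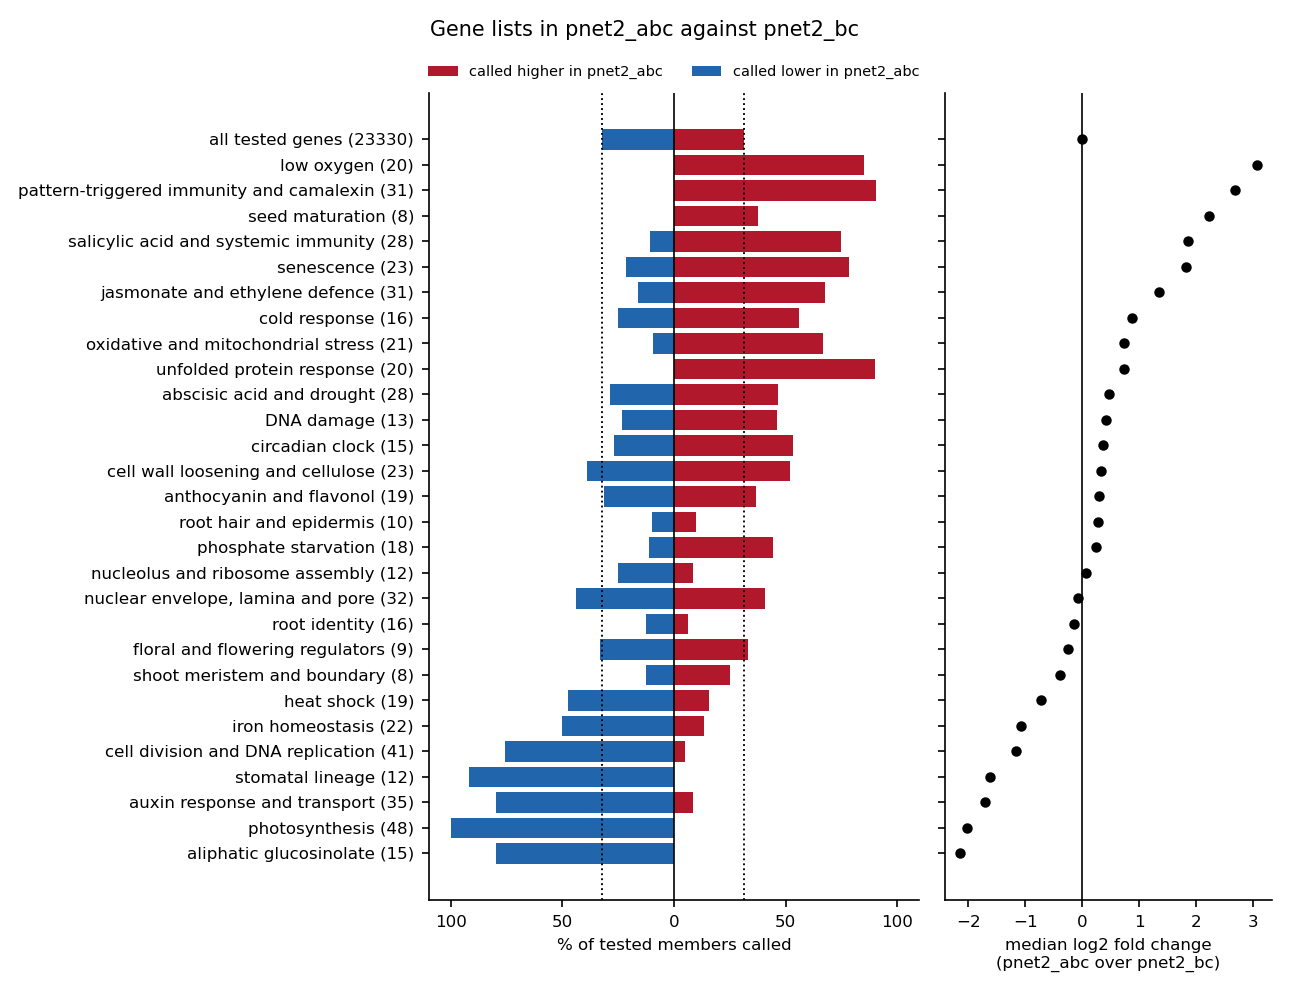
For each gene list (number of tested members in brackets) the left panel plots the percentage of members called higher (red) and lower (blue) in pnet2_abc against pnet2_bc, with dotted lines at the 31.5% and 32.1% of all tested genes, and the right panel plots the median log2 fold change. Low oxygen lies at the high end (3.07) and aliphatic glucosinolate at the low end (-2.15).

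A second question was which changes of pnet2_bc reverse once A is mutated as well. A change of pnet2_bc was a gene called against WT, and it reversed where pnet2_abc against pnet2_bc was called in the opposite direction. Both comparisons use the 3 pnet2_bc libraries, so a pnet2_bc value that lies far from WT by chance enters both with opposite sign, and the counts are a description. Of the 177 changes, 96 reversed (54.2%), 60 went further the same way and 21 were not called in pnet2_abc against pnet2_bc. Of the 83 risers, 49 reversed (59.0%, where 32.1% of all tested genes were called lower), and of the 94 fallers 47 did (50.0%, where 31.5% of all tested genes were called higher). Under library size alone 60.1% of the pnet2_bc changes were rises, against 46.9% with TMM. Among the 96, the triple mutant was called past WT on the other side for 61, was not called against WT for 26 and was still called on the pnet2_bc side for 9. A call that was missed against WT does not show that a level equals that of WT.

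The size of this set moved when single libraries of pnet2_bc or WT were left out. Without pnet2_bc replicate 1 there were 55 changes and 34 reversals, and without pnet2_bc replicate 2 there were 57 and 41. Without pnet2_bc replicate 3 there were 154 and 90. Without WT replicate 1, 2 or 3 the changes numbered 76, 64 and 71 and the reversals 46, 31 and 42. The share that reversed lay between 48.0% and 71.9% over all alternatives tried. Of the 96 genes, 92 kept the call of pnet2_abc against pnet2_bc without any 1 of the 12 libraries, but 22 kept the call of pnet2_bc against WT.

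**Figure D4:**
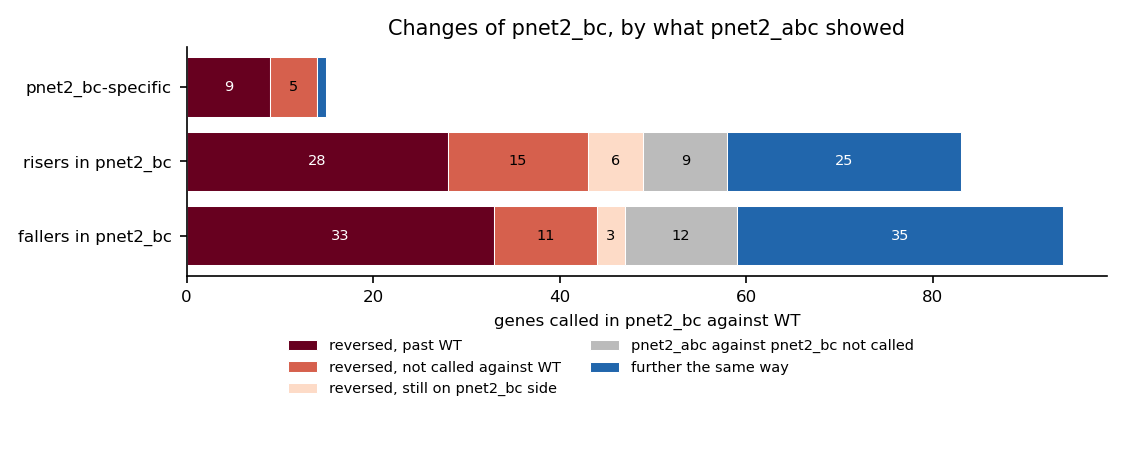
Bars count the genes called in pnet2_bc against WT, split by what pnet2_abc showed, for the 15 pnet2_bc-specific genes, the 83 risers and the 94 fallers. Reversed genes fill the left of each bar, 14 of 15, 49 of 83 and 47 of 94.

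Changes specific to pnet2_bc, called in the same direction against WT and against pnet2_ac, numbered 15, and 14 of them reversed: 12 of 13 fallers and both risers. The exception was AT5G67610 of the PNET2 family, which was lower in pnet2_bc than in WT (-0.55, adjusted p = 0.0269) and fell further in pnet2_abc. Its call against WT was lost without pnet2_bc replicate 1, 2 or 3 or WT replicate 1 or 3 (adjusted p up to 0.114), and its call against pnet2_ac without any 1 library of pnet2_bc or pnet2_ac (adjusted p up to 0.108). Of the 14, 9 were called past WT in pnet2_abc and 5 were not called against WT. Of the 162 changes that were not specific, 82 reversed (50.6%). The call against pnet2_ac selects once more on the 3 pnet2_bc libraries, whose values enter pnet2_abc against pnet2_bc with opposite sign. That favours reversal in advance, so the contrast with the changes that were not specific is a description only. Among the 23330 genes tested, 31.5% had the call that reverses a faller and 32.1% the call that reverses a riser. The 14 genes were few and their number moved with single libraries: 42 without pnet2_ac replicate 1, 4 and 5 without pnet2_ac replicates 2 and 3, 7 and 9 without pnet2_bc replicates 1 and 2, and 9, 7 and 8 without WT replicates 1, 2 and 3. All 14 kept the call of pnet2_abc against pnet2_bc without any 1 library, and 3 kept all of their calls, namely WRKY33, AT2G16860 and MRD1.

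The 3 promoters shown here belong to pnet2_bc-specific fallers that rose above WT in pnet2_abc and that hold a W-box, the motif bound by WRKY factors. They are the 250 bases before the annotated start, on the gene's own strand, from the TAIR10.1 genome, with W-boxes in capitals (TTGACC or TTGACT, or their complements GGTCAA or AGTCAA). WRKY33 lies at chr2:16107985-16108234 (plus strand), COBL2 at chr3:11727774-11728023 (plus strand) and ZAT7 at chr3:16926884-16927133 (minus strand).
WRKY33: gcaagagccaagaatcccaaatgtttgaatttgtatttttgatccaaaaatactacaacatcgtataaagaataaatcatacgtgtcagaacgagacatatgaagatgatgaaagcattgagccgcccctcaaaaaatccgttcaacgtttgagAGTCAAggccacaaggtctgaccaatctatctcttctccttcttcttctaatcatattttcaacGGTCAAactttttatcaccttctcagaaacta
COBL2: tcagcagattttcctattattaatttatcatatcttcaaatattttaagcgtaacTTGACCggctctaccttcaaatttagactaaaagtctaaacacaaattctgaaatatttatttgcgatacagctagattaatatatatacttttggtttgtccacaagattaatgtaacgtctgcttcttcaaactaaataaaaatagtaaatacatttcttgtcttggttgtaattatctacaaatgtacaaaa
ZAT7: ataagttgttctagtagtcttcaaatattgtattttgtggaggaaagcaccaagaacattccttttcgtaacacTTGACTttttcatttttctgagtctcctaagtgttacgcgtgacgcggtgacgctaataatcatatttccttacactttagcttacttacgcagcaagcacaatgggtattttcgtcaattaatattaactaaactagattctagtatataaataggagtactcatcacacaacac
In WRKY33 the W-boxes begin 96 and 32 bases before the start, in COBL2 195 and in ZAT7 176. Over a window from 250 bases before to 50 after the start and on both strands, a W-box was present in 5 of 11 matched pnet2_bc-specific fallers that reversed (45.5%), in 21 of 45 of all fallers that reversed (46.7%) and in 13 of 49 risers that reversed (26.5%). The share among all 22065 tested protein-coding genes was 32.9%, among genes higher in pnet2_abc 37.0% and among genes lower in pnet2_abc 28.7%. The abscisic acid motif core ACGTG was in 4 of the 11 (28.0% of all), the G-box CACGTG, which contains that core, in 0 of the 11 (8.57%), the evening element AAAATATCT in 1 (2.94%) and the ethylene-linked GCC box GCCGCC in 2 (2.59%). A match describes these letters and shows no binding.

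Several of the reversing genes fell slightly in pnet2_bc and rose far above WT in the triple mutant. WRKY33, given above at 165 to 199 CPM in pnet2_abc and 15.5 to 17.2 CPM in pnet2_bc, had 26.6, 23.4 and 23.7 CPM in pnet2_ac and 30.0, 30.2 and 27.2 CPM in WT. It was 1.79-fold lower in pnet2_bc than in WT (adjusted p = 8.5e-04), and no libraries overlapped between any of the 4 genotypes. COBL2, a COBRA-like protein of cell wall deposition, had 37.7, 43.6 and 44.0 CPM in pnet2_abc, against 3.27, 3.72 and 3.42 CPM in pnet2_bc (12-fold higher, adjusted p = 6.0e-12), and 5.33, 5.37 and 5.94 CPM in WT. ZAT7, a zinc finger protein of stress responses, had 14.9, 17.2 and 14.3 CPM in pnet2_abc, against 1.73, 2.01 and 1.16 CPM in pnet2_bc (9.45-fold), and 4.43, 2.85 and 4.21 CPM in WT. In both, pnet2_bc was the lowest genotype and pnet2_abc the highest.

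The same order held for 4 further fallers. CWLP, a protein that links cell wall and plasma membrane, had 2471, 3130 and 2729 CPM in pnet2_abc, against 320, 327 and 354 CPM in pnet2_bc (8.32-fold higher), and 517, 531 and 559 CPM in WT. CWLP shares 1372 bases with a gene on the opposite strand. The strand setting of counting is not given, so these genes may share reads. PYL6, an abscisic acid receptor, had 25.4, 21.1 and 28.4 CPM in pnet2_abc, against 2.84, 3.82 and 4.03 CPM in pnet2_bc (7.01-fold), and 8.47, 9.46 and 7.39 CPM in WT. SCL3, a regulator of gibberellin response, had 52.8, 60.9 and 59.2 CPM in pnet2_abc, against 20 to 20.3 CPM in the 3 libraries of pnet2_bc (2.87-fold), and 29.3, 31.0 and 27.5 CPM in WT. FLA13, a fasciclin-like arabinogalactan protein, had 82.0, 77.1 and 90.5 CPM in pnet2_abc, against 40.2, 38.7 and 45.9 CPM in pnet2_bc (adjusted p = 9.7e-08), and 67.1, 65.0 and 62.6 CPM in WT. For all 4 genes the triple mutant lay above WT and pnet2_bc below it in every library. Both risers went the other way. THE1, a receptor kinase that monitors the cell wall, had 42.1, 43.1 and 41.5 CPM in pnet2_abc, against 84.7, 80.6 and 77.9 CPM in pnet2_bc (1.92-fold lower), and 65.7, 63.3 and 64.7 CPM in WT. AT5G43150, annotated as an elongation factor, had 5.42, 6.55 and 6.50 CPM in pnet2_abc, against 75.5, 73.5 and 65.9 CPM in pnet2_bc (11.6-fold lower), and 40.7, 45.9 and 51.3 CPM in WT.

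The other 5 returned to a level not called different from WT. AT2G16860, a GCIP-interacting protein, had 61.5, 63.2 and 60.3 CPM in pnet2_abc, against 35.1, 36.2 and 39.4 CPM in pnet2_bc (0.74 ± 0.07, adjusted p = 2.0e-07), and 56.9, 60.4 and 55.4 CPM in WT (pnet2_abc against WT 0.10, adjusted p = 0.228). TEM1, a repressor of flowering, had 74.8, 85.0 and 96.5 CPM in pnet2_abc, against 48.3, 46.1 and 51.3 CPM in pnet2_bc (1.76-fold higher), and 86.8, 95.5 and 77.3 CPM in WT (pnet2_abc against WT -0.02, adjusted p = 0.881). OEP6, a protein of the outer plastid envelope, had 176, 179 and 182 CPM in pnet2_abc, against 112, 139 and 129 CPM in pnet2_bc (1.41-fold higher), and 156, 186 and 187 CPM in WT. In all 3 the pnet2_bc libraries lay below every pnet2_abc and WT library. MRD1 (chromosome 1, 19963047 to 19964712, minus strand) had 9.44, 6.67 and 6.20 CPM in pnet2_abc, against 0.27, 1.04 and 0.331 CPM in pnet2_bc (13.4-fold higher, adjusted p = 8.3e-06). Its levels were 43.0, 48.7 and 53.0 CPM in pnet2_ac and 11.5 ± 1.38 CPM in WT (SD, n = 3), so the double mutants lay on opposite sides of WT. AT1G07887, a noncoding RNA on the opposite strand of the same place (19963067 to 19964105, plus strand), had 1.29, 0.184 and 0.76 CPM in pnet2_abc and no count in pnet2_bc, at least 55.9-fold higher. These genes share 1039 bases and may share reads, as the strand setting of counting is not given. AT1G07887 also overlaps a gene on its own strand by 839 bases.

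The calls of these genes in pnet2_bc were less firm than those in pnet2_abc. The call against WT was lost without 1 library for AT5G43150, CWLP, COBL2, ZAT7, OEP6, THE1 and AT1G07887, with adjusted p up to 0.0681, 0.0976, 0.101, 0.0913, 0.139, 0.171 and 0.145. Leaving out pnet2_bc replicate 1, 2 or 3 ended 7, 5 and 5 of these calls, and leaving out WT replicate 1, 2 or 3 ended 5, 6 and 6. The call against pnet2_ac was lost for 10 of the 14 without pnet2_bc replicate 1 and for 9 without pnet2_ac replicate 2 or without pnet2_ac replicate 3.

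**Figure D5:**
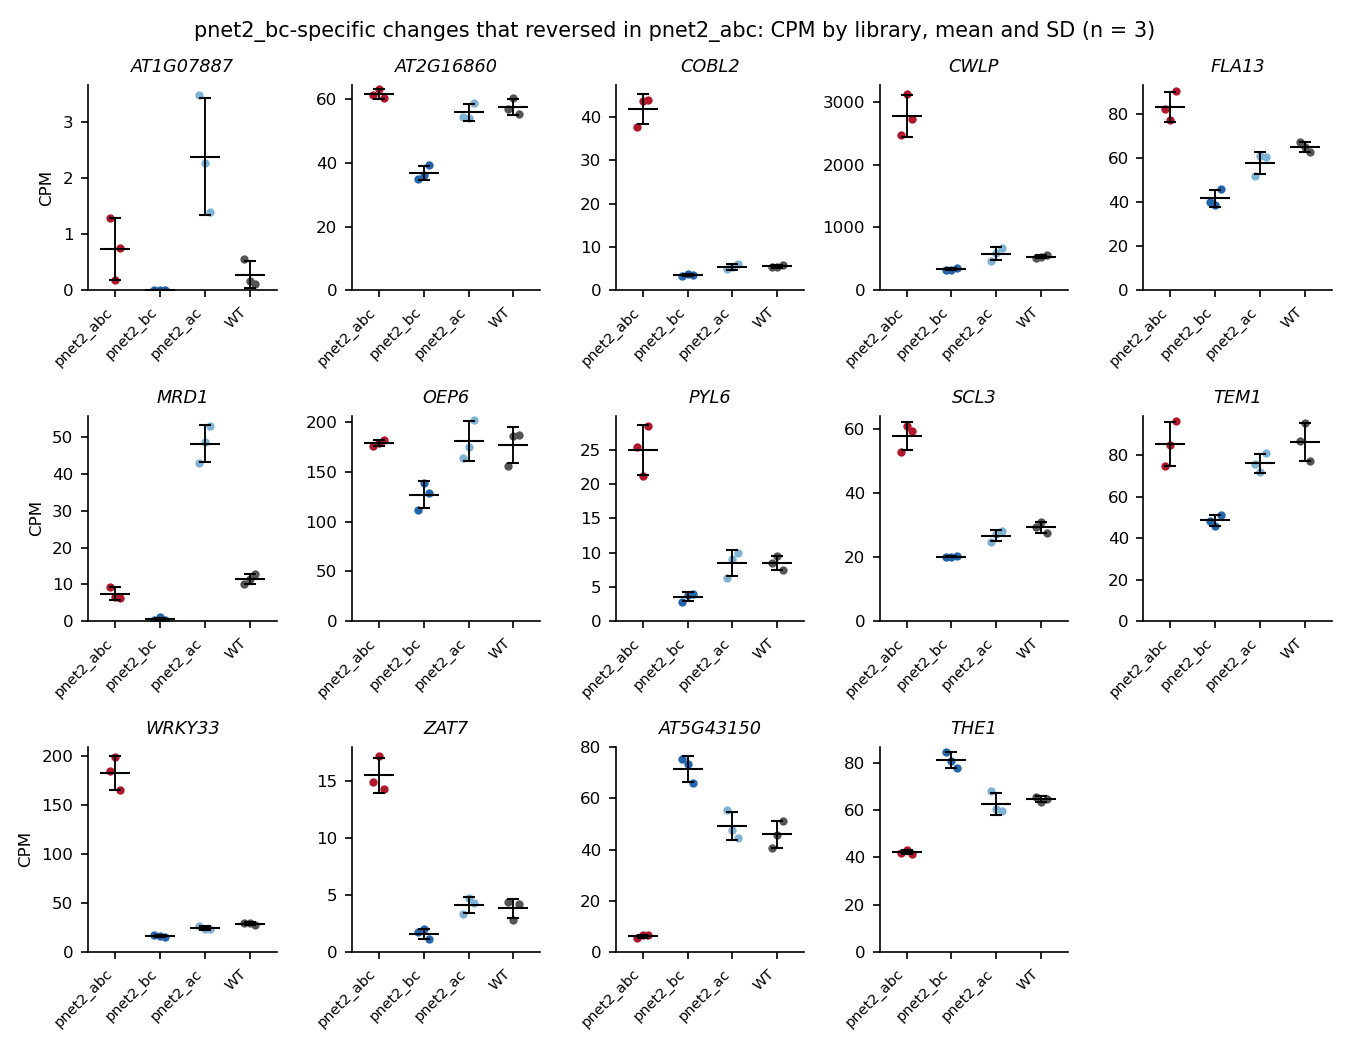
CPM of the 14 pnet2_bc-specific genes that reversed, fallers first and the risers AT5G43150 and THE1 last, in each library (dots) with mean and SD per genotype (n = 3), pnet2_abc first and WT last. In the faller panels pnet2_bc is lowest, and pnet2_abc is above WT for 7 of 12 by the test.

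Among reversals not specific to pnet2_bc, risers of pnet2_bc included genes of sulfate assimilation, a pathway that was not among the lists. APR1 and APR3 reduce activated sulfate and APS3 activates it. APR1 had 51.7, 54.1 and 56.8 CPM in pnet2_abc, against 210, 211 and 179 CPM in pnet2_bc (3.69-fold lower, adjusted p = 4.1e-11), and 135, 118 and 142 CPM in WT. APR3 had 96.6, 93.7 and 106 CPM in pnet2_abc, against 275, 278 and 253 CPM in pnet2_bc (2.72-fold lower), and 180, 162 and 190 CPM in WT. APS3 had 7.67, 7.39 and 7.23 CPM in pnet2_abc, against 37.8, 43.1 and 33.1 CPM in pnet2_bc (5.11-fold lower), and 23.2, 20.6 and 24.9 CPM in WT. All 3 were thus above WT in pnet2_bc and below WT in pnet2_abc in every library, and all were also above WT in pnet2_ac (adjusted p = 0.00377, 7.8e-04 and 0.0246 for APR1, APR3 and APS3). For APS3 that call was lost without pnet2_ac replicate 1 or 3 or WT replicate 1 or 2 (adjusted p up to 0.0981). SHM7, a serine hydroxymethyltransferase, followed the same pattern with 62.3, 67.4 and 61.2 CPM in pnet2_abc, against 171, 136 and 152 CPM in pnet2_bc, and 91.1, 79.0 and 95.7 CPM in WT. Other risers came down only part of the way. AT3G19680 stood at 44.4 CPM in pnet2_abc, against 69.3 CPM in pnet2_bc and 35.5 CPM in WT, and was still called above WT (0.32, adjusted p = 0.00634). AT2G41190 and EXL5 did likewise. AT2G47440 (1.23-fold lower, adjusted p = 0.0457) lost its call of pnet2_abc against pnet2_bc without pnet2_abc replicate 1 or 3, pnet2_bc replicate 1, pnet2_ac replicate 2 or any WT replicate (adjusted p up to 0.224).

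Immune genes were among the fallers that reversed. In the list of pattern-triggered immunity, 5 genes had fallen in pnet2_bc (WRKY22, WRKY33, ERF104, PUB22 and CYP81F2) where 94 of all 23330 tested genes had. All 5 were higher in pnet2_abc, as were 28 of the 31 genes of that list (90.3%), and the list's median in pnet2_bc against WT was -0.21. WRKY22 had 24.2, 28.8 and 24.0 CPM in pnet2_abc, against 5.95, 4.87 and 5.6 CPM in pnet2_bc (4.69-fold higher, adjusted p = 1.9e-09), and 9.52, 12.3 and 12.1 CPM in WT. ERF104 averaged 40.5 CPM in pnet2_abc, 5.71 CPM in pnet2_bc and 9.79 CPM in WT, and PUB22 38.7 CPM in pnet2_abc, 5.15 CPM in pnet2_bc and 8.18 CPM in WT. The call of ERF104 in pnet2_bc against WT was lost without pnet2_bc replicate 2 (adjusted p = 0.0592). That of PUB22 was lost without any 1 pnet2_bc or WT library or pnet2_abc replicate 1 (up to 0.161). That of CYP81F2 was lost without any 1 pnet2_bc library, WT replicate 2 or 3, pnet2_abc replicate 1 or pnet2_ac replicate 3 (up to 0.148). XTH24, a xyloglucan-modifying enzyme, had 983, 1109 and 1065 CPM in pnet2_abc, against 39.6, 34.5 and 46.1 CPM in pnet2_bc, and 65.1, 67.9 and 65.5 CPM in WT (adjusted p = 2.3e-13 for pnet2_abc against pnet2_bc). STR16, a sulfurtransferase, had 206, 220 and 210 CPM in pnet2_abc, against 113, 112 and 120 CPM in pnet2_bc, and 149, 166 and 156 CPM in WT. In XTH24 and STR16 every pnet2_bc library was below WT and every pnet2_abc library above it.

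Changes of pnet2_bc that did not reverse mostly continued. HCF173, needed to translate a photosystem II core protein, had 90.7, 109 and 83.8 CPM in pnet2_abc, against 241, 216 and 230 CPM in pnet2_bc (2.43-fold lower, adjusted p = 4.2e-09), and 384, 367 and 368 CPM in WT. ATSPS4F, a sucrose-phosphate synthase, had 63.2, 53.7 and 60.4 CPM in pnet2_abc, against 235, 207 and 216 CPM in pnet2_bc (3.71-fold lower), and 344, 324 and 324 CPM in WT. AT3G56200, an amino acid transporter, had 97.3, 112 and 107 CPM in pnet2_abc, against 38.8, 38.0 and 34.3 CPM in pnet2_bc (2.84-fold higher), and 24.4, 18.9 and 22 CPM in WT. These genes therefore ran in steps, with pnet2_bc between the triple mutant and WT in every library. RAV1, a growth-repressing transcription factor, had 36.1, 37.7 and 30.6 CPM in pnet2_abc, against 35.6, 31.4 and 36.6 CPM in pnet2_bc, with overlapping libraries (0.01 ± 0.10, adjusted p = 0.928), and 66.4, 57.1 and 50.8 CPM in WT.

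Mutations in A were also present in pnet2_ac, whose comparison with WT shares no library with pnet2_abc against pnet2_bc. That comparison adds mutations in A and C together, whereas C is mutated in both pnet2_abc and pnet2_bc. Shared changes therefore cannot be assigned to A alone. Of the 177 changes of pnet2_bc, which has no mutation in A by its label, 55 were called the same way in pnet2_ac. Of the 356 genes called in pnet2_ac against WT, 262 (73.6%) were called the same way in pnet2_abc against pnet2_bc, 54 (15.2%) the opposite way and 40 were not called. Of 140 risers of pnet2_ac, 88 were higher in pnet2_abc (62.9%, where 31.5% of all tested genes were), and of 216 fallers 174 were lower (80.6%, where 32.1% were). NCED4, a carotenoid-cleaving enzyme, had 3.33, 4.03 and 2.89 CPM in pnet2_abc, against 123, 102 and 119 CPM in pnet2_bc (33.6-fold lower, adjusted p = 4.3e-13). In pnet2_ac it had 76.7, 66.5 and 67.7 CPM, against 141, 140 and 125 CPM in WT (-0.94, adjusted p = 7.8e-04). WIP1, a nuclear envelope protein, differed in size: 27.6, 24.6 and 29.2 CPM in pnet2_abc, against 20.2, 21.7 and 20.7 CPM in pnet2_bc (1.3-fold higher, adjusted p = 0.00607), but 290, 384 and 305 CPM in pnet2_ac, against 21.1, 22.5 and 18.1 CPM in WT (3.99, adjusted p = 9.1e-11). AT4G23680, a lipid-transport domain protein, went opposite ways, with 1229, 1355 and 1221 CPM in pnet2_abc, against 105, 92.6 and 92.8 CPM in pnet2_bc (13.1-fold higher), but 71.9 ± 4.92 CPM in pnet2_ac, against 99.9 ± 0.168 CPM in WT (SD, n = 3 each). The counts of shared genes also moved with single libraries. Genes changed the same way numbered 135, 133 and 77 without pnet2_ac replicate 1, 2 or 3. They numbered 118, 96 and 78 without WT replicate 1, 2 or 3. The share lay between 59.0% and 74.4% over all alternatives tried.

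Exons of other genes described here also overlap a gene on the opposite strand by over 100 bases. Reads of the partner gene may be counted there, as the strand setting is not given. These were PEPR2 (764 bases), SHY2 (536), HCF173 (484), SYP111 (464), CYP71A13 (330), RVE1 (225), ATR (200), AT5G46330 (172), ATSPS4F (166), CYCD1;1 (144), EFR (105), HSP101 (101) and AT3G19680 (101). CA1, LINC4 and AT1G07887 overlap a gene on the same strand by 343, 466 and 839 bases.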

How the data were processed

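Whole-number read counts per gene were deposited by the authors for 12 libraries, not normalized; per the submitters' processing notes HISAT2 2.0.4, HTSeq 0.6.1p1 and the build TAIR10 were used, with roles, options and the strand setting of counting not given in the sources used here. Per the labels, libraries were strand-specific and sequenced as paired reads. The authors also deposited TPM values per gene, from kallisto per the file name, each library scaled to the same sum per the file headers; these served only as an alternative.

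These counts were fitted with edgeR 4.0.16 under R 4.3.3: filterByExpr (23330 of 27436 genes kept), TMM scaling, 1 robust quasi-likelihood model of all 12 libraries in which every genotype has its own mean (8 residual degrees of freedom), Benjamini-Hochberg adjustment over all tested genes and calls at an adjusted p under 0.05. CPM are counts scaled to a common, TMM-adjusted library size. The SE of a log2 fold change was taken as its absolute value divided by the square root of the test's F statistic. It therefore carries no information beyond that test. Counts and bounds cover counting error only. Chi-square tests of replicate pairs gave 31.18 to 48.89 per degree of freedom, well beyond sampling noise, so no library was a copy of another. Samples were grouped by their titles. Same-numbered replicates did not deviate together, so the replicate number was not in the model. Alternatives were DESeq2 1.42.0, other scalings, filters and thresholds, limma 3.58.1 on log2 TPM, fits to fewer libraries and leaving out each library. The scripts were tested on simulated counts. Gene IDs joined the counts to the TAIR10.1 annotation (27173 of 27436 matched), which gave symbols, coordinates and promoter sequence.

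The members and gene lists were chosen with earlier results of these data known. Named genes were the DUF2215 genes, the 10 largest rises and falls (mean of at least 5 CPM, no overlapping exons or libraries), the 3 called members of smallest p per list, all pnet2_bc-specific reversals, and the smallest p values among other pnet2_bc changes and among pnet2_ac changes. Further list members are given as log2 fold changes to show the spread of a list and were chosen after their values were seen.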

Additional observations from a re-analysis of the deposited data

How the results depend on the processing

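The count of genes called in pnet2_abc against pnet2_bc stayed within 1.5 times its value under every alternative run. The counts built on pnet2_bc or pnet2_ac against WT did not. DESeq2 gave 671 genes in pnet2_bc against WT, 322 reversed, 92 pnet2_bc-specific reversed and 721 pnet2_ac changes the same way. Fits to the 2 genotypes compared gave 384 and 185 reversed. At an adjusted p under 0.01 there were 22 reversed and 2 specific reversed, and under 0.10 there were 183 and 38. Quantile-normalized TPM gave 9 specific reversed. The replicate block, where replicate numbers did not pair the libraries, gave 25 specific reversed and changed no other of these counts by over 1.5 times. Leaving out 1 library gave 55 to 235 pnet2_bc changes, 31 to 131 reversed, 4 to 42 specific reversed and 77 to 294 pnet2_ac changes the same way. The cause was not tested. A fit without robust estimation of the spread, chosen after seeing the data, gave 150 pnet2_bc changes, 84 reversed and 10 specific reversed. No seed maturation gene reached a mean of 5 CPM, so that filter gave no median for them. RAV1, not called, changed sign to -0.03 with quantile-normalized TPM, -0.02 and -0.05 without pnet2_abc replicates 1 and 2, and -0.06 without pnet2_bc replicate 2. Of the 144 named genes, 135 kept direction and call under every alternative. The gene lists were less stable: 37 of 56 counts of members called stayed within 1.5 times, and 8 of 28 medians within 0.2 (log2), under every alternative. Leaving out pnet2_abc replicate 2 moved 7 medians by more than that, and TPM plus 1 moved 9. The median of heat shock genes lay between -0.92 and -0.39, of oxidative stress genes between 0.64 and 1.13, of clock genes between 0.31 and 0.59 and of root hair genes between 0.07 and 0.57.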

Other observations

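Genes outside the lists above also moved in pnet2_bc and returned or overshot in pnet2_abc; they were chosen after their values were seen. MIPS1 and MIPS2 make inositol phosphate, the first step of inositol synthesis. MIPS1 averaged 44.2 CPM in pnet2_abc, 399 CPM in pnet2_bc and 283 CPM in WT (pnet2_abc against pnet2_bc -3.17 ± 0.09, adjusted p = 1.2e-12). MIPS2 averaged 11.4 CPM in pnet2_abc, 104 CPM in pnet2_bc and 63.4 CPM in WT (-3.18 ± 0.16, adjusted p = 1.0e-09). Both calls in pnet2_bc against WT were lost without pnet2_bc replicate 1, among other libraries, with adjusted p up to 0.0751 for MIPS1 and 0.161 for MIPS2. APR2, a further sulfate-reducing gene, averaged 240 CPM in pnet2_abc, 489 CPM in pnet2_bc and 380 CPM in WT (-1.03 ± 0.06, adjusted p = 1.7e-09), and it shares 950 bases with an opposite-strand gene. The call of APR2 in pnet2_bc against WT was lost without pnet2_bc replicate 1 or 2 or WT replicate 1 or 2 (adjusted p up to 0.0886). SZF1, a zinc finger gene of stress responses, averaged 218 CPM in pnet2_abc, 31.2 CPM in pnet2_bc and 44.0 CPM in WT (2.81 ± 0.11, adjusted p = 9.2e-12), and its call in pnet2_bc against WT was lost without pnet2_bc replicate 2 or 3 or any WT replicate (adjusted p up to 0.146). PAL2 and ATCAD4, enzymes on the route to lignin, went further the same way. PAL2 averaged 165 CPM in pnet2_abc, 241 CPM in pnet2_bc and 357 CPM in WT, and ATCAD4 averaged 192 CPM in pnet2_abc, 313 CPM in pnet2_bc and 395 CPM in WT. Both of their calls in pnet2_bc against WT were lost without pnet2_bc replicate 1, among others, with adjusted p up to 0.0672 and 0.117.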
